A study of Mus musculus with 14 samples.

Results

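Transcripts of 9 genes of the complement system, of 24062 genes in the count table, were followed through bulk RNA-seq of control dorsal root ganglia (DRGs) and plexiform neurofibromas (PNs). The members were taken by symbol: the classical pathway genes *C1ra*, *C2*, and *C4b*, the central component *C3*, the alternative pathway gene *Cfb*, the terminal component *C7*, the inhibitor *Serping1*, and the receptors *C3ar1* and *C5ar1*. The 14 libraries were from 3 control DRGs, 5 slow-growing PNs, and 6 fast-growing PNs. Controls were *Nf1 fl/fl* mice without Cre, and PNs came from *DhhCre;Nf1 fl/fl* mice, in which Cre driven by the *Dhh* promoter recombines *Nf1* in the Schwann cell (SC) lineage, so that stromal, immune, and neuronal cells of a PN keep the floxed gene. All mice were labelled as of mixed C57BL/6, I-129, and FVBN background, which the study's methods call C57BL/6 for the most part; they received no drug, and were 9 months old by the methods, although a legend of the study gives 7 months for the bulk RNA-seq. On MRI at 7 and 9 months, a fast-growing PN had gained more than 35 mm3 and a slow-growing PN had changed by less than 5 mm3. Libraries are named here as control, slow, or fast with a replicate number that carries no further meaning. The methods state that both sexes were used, but the sex of the mouse behind each library, and whether any PNs shared a mouse, is not given in the sources used here, so p values measure the spread between these samples. Controls and PNs differed in genotype and in tissue at once, and a difference in how they were collected cannot be told apart from either.

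Complement is a cascade of plasma proteases and binding proteins. The C1 complex, which holds the proteases C1r and C1s, cleaves C4 and then C2 to form a C3 convertase in the classical pathway, and factor B supplies the protease of the alternative convertase. C3 fragments tag surfaces and release the peptide C3a, cleavage of C5 releases C5a, and C5b gathers C6, C7, C8, and C9 into a membrane pore. Liver makes most of the circulating proteins, but fibroblasts, fat cells, macrophages, and glia also transcribe these genes, and peptide receptors are typical of myeloid cells.

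Libraries held 9596773 to 17594164 counts on genes. Levels are given in CPM, in which each library's counts are divided by its total after correction by the trimmed mean of M values (TMM). A count of 3, taken as the floor, equalled 0.166 to 0.317 CPM, and no member had fewer than 17 counts in any library, the lowest being *C5ar1* in slow replicate 4. *Nf1* was at 131–229 CPM in controls, 224–293 CPM in slow-growing PNs, and 224–276 CPM in fast-growing PNs; the counts do not separate the floxed exons, so this level does not check the genotype. Slow replicate 4 was lowest of the 14 libraries for 8 members, *C7* being the exception, and also had the lowest summed macrophage markers (146 CPM). Fast replicate 4 held nearly no neuronal transcripts, with a summed level of 24.8 CPM over 8 markers against 1502 CPM or more in every control. The liver-defining transcript *Alb* stayed at or below 3.70 CPM in controls and 0.0757 CPM in PNs. The sum of 9 hepatocyte markers was 172–233 CPM in controls, 26.6–298 CPM in slow-growing PNs, and 180–425 CPM in fast-growing PNs. Nearly all of that sum was *Trf*, with 43630 counts over the 14 libraries, where each of the others had 734 or fewer. The sum therefore follows *Trf* and does not measure hepatocyte RNA. Of the 4 tested, 0 were called versus controls, beside 11.3% and 31.4% of all genes in slow- and fast-growing PNs. Their median log2 fold changes were -0.03 and 0.62 in the same order.

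In the GENCODE annotation of mm10, 3 members lie close together on the minus strand of chromosome 17, *C4b* at chr17:34728380-34743882, *Cfb* at chr17:34856374-34862518, and *C2* at chr17:34862604-34898265. *C3* lies on the same chromosome at chr17:57203970-57228136. *C3ar1* (chr6:122847138-122856161, minus strand) and *C1ra* (chr6:124512405-124523443, plus strand) are on chromosome 6. *C7* is at chr15:4988762-5063740, *Serping1* at chr2:84765387-84775444, and *C5ar1* at chr7:16246743-16259540, all on the minus strand. Counts are summed over the exons of a gene.

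Promoter sequences are shown for 3 members whose levels differed between fast-growing PNs and controls, 2 that fell (*C3* and *C7*) and 1 that rose (*C3ar1*). The sequences are the 250 bases before the start of each gene in RefSeq on GRCm38.p6, 5′ to 3′ on the minus strand, at chr17:57228137-57228386 for *C3*, chr15:5063774-5064023 for *C7*, and chr6:122856158-122856407 for *C3ar1*. Capitals mark matches, on either strand, to the NF-kB motif, searched as GGG, 5 bases of any kind, and CC, in *C3* and *C3ar1*, and to the interferon-gamma-activated site (GAS), searched as TTC, 3 bases of any kind, and GAA, in *C7*.
C3: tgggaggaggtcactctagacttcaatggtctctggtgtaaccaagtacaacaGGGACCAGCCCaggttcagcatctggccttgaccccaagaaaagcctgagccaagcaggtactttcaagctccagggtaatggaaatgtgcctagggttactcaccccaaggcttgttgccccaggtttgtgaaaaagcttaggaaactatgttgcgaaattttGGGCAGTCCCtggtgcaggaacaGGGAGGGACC
C7: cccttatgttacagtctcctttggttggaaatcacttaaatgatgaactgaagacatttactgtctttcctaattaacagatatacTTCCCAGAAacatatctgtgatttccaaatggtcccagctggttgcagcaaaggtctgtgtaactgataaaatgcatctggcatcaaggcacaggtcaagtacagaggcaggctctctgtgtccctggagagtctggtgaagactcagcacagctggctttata
C3ar1: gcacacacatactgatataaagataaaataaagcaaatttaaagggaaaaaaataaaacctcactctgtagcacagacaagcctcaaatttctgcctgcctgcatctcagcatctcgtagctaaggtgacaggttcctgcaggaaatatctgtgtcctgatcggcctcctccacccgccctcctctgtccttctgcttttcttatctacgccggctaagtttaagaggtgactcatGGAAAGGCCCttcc
RefSeq promoters were matched for 5 of the 9 members, the others being *C1ra* and *C5ar1*, whose windows held no match to any of the 3 motifs searched. The *C3* window held NF-kB letters at 3 places, the nearest ending at the last base before the start, and some matches read on both strands overlapped. Of 32851 promoter windows of this length, 45.8% held the NF-kB letters, 7.02% held the GAS letters, and 2.98% held those of the interferon-stimulated response element, searched as GAAA, 2 bases of any kind, and GAAA, which were found in none of the 5 members. A match shows only that the letters are present in the window.

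In fast-growing PNs, *C4b* and *C3ar1* rose 5.06-fold and 5.43-fold over controls, while *C3*, *C7*, and *Cfb* fell 6.22-fold, 6.08-fold, and 3.71-fold. In slow-growing PNs, *C7* and *Cfb* fell 8.02-fold and 4.56-fold, and no member was called higher. Each comparison was fitted with edgeR's quasi-likelihood test over all genes, and a call required an adjusted p under 0.05, with Benjamini-Hochberg adjustment over all genes tested. Between slow-growing PNs and controls, 2 of 9 members were called, both lower, where 11.3% of 15714 genes were called and 7.13% were called lower. Between fast-growing PNs and controls, 5 of 9 were called, 2 higher and 3 lower, where 31.4% of 16037 genes were called, 14.8% higher and 16.7% lower. Between fast- and slow-growing PNs, edgeR called 0 of 9 members, where 1.27% of 15465 genes were called. In that comparison 3 members had an unadjusted p under 0.05 in edgeR, where 20.4% of genes did, and DESeq2 called those 3, *C4b*, *Serping1*, and *C3ar1*, among 1592 of 17364 genes. Counting libraries instead, 1 of 9 members had all slow-growing PNs below all controls (*Cfb*), as 12.4% of genes did. All fast-growing PNs lay above all controls for 2 of 9 (*C4b* and *C3ar1*) and below them for 2 of 9 (*C3* and *Cfb*), as 17.2% and 15.2% of genes did, and 0 of 9 separated fast- from slow-growing PNs, as 3.01% of genes did. All 9 members passed the filter on low counts in every comparison. The median log2 fold change of the members was -0.46, 0.08, and 0.54 in these comparisons in turn, beside 0.04, 0.02, and -0.03 over all genes. The comparisons share libraries in pairs, so their values stand side by side and are not independent.

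**Figure D1:**
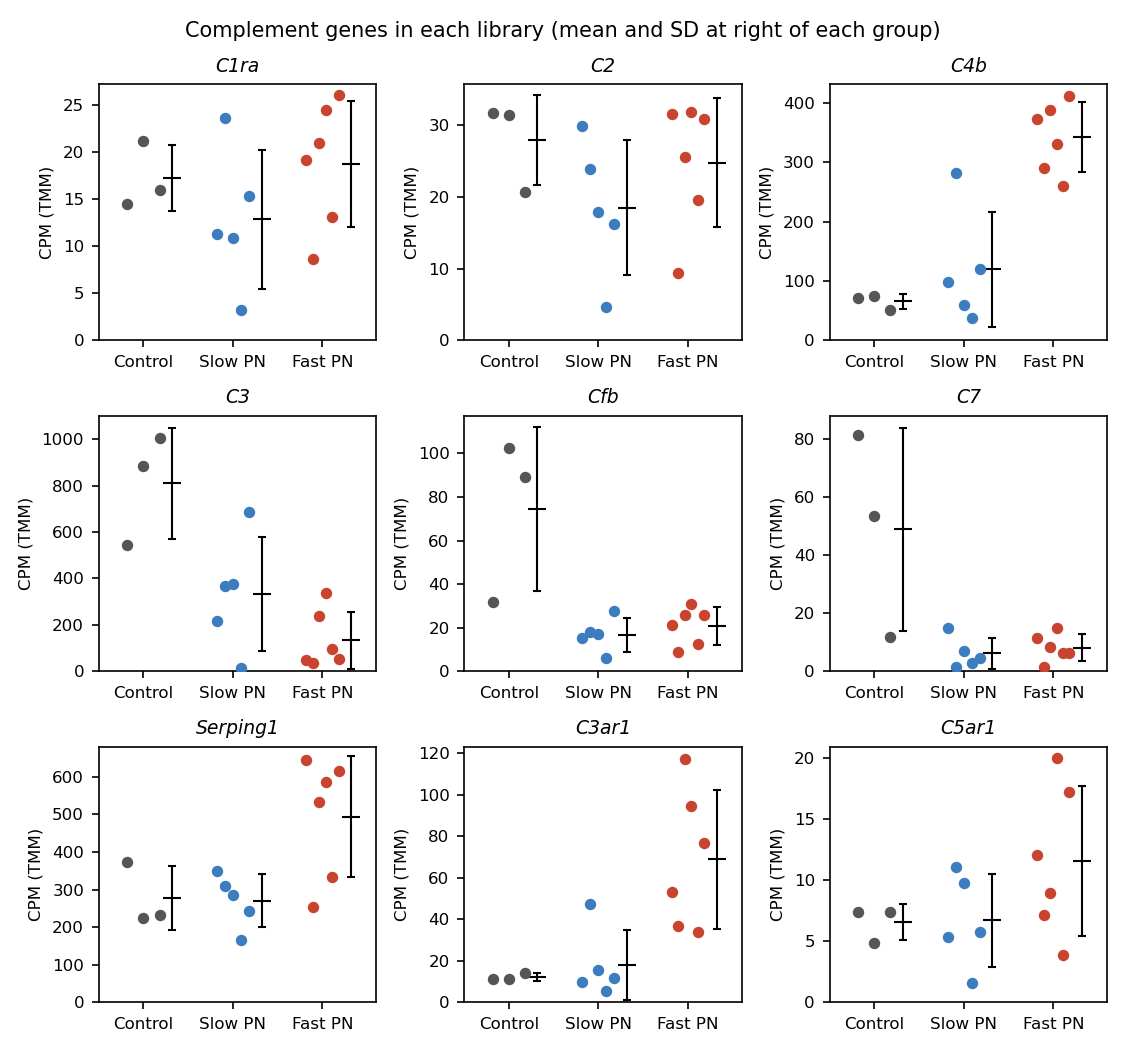
Level of each member in every library, in CPM after TMM scaling on a linear axis from 0, with control DRGs in grey, slow-growing PNs in blue, and fast-growing PNs in red; the bar beside each group is its mean and SD (n = 3, 5, and 6). All 6 fast-growing PNs lay above all 3 controls for *C4b* and *C3ar1* and below them for *C3* and *Cfb*.

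With all libraries kept, edgeR called *C4b*, the larger substrate of C1, alone of the 3 classical pathway members. That call was in fast-growing PNs versus controls only. *C4b* was at 71.2, 75.2, and 50.4 CPM in the 3 controls. Slow-growing PNs held 97.8, 282, 59.4, 38.3, and 121 CPM, and fast-growing PNs ranged from 261 to 412 CPM with a median of 352. Every fast-growing PN was above every control, and slow replicate 2 alone among the slow-growing PNs reached the fast-growing range. The group means were 65.6 ± 13.3 (SD, n = 3), 120 ± 96.2 (n = 5), and 343 ± 58.7 CPM (n = 6). Expressed as a log2 fold change, *C4b* in fast-growing PNs versus controls rose by 2.34 ± 0.22 (SE; edgeR adjusted p = 7.81e-05), and it passed the threshold with each of the 9 libraries left out in turn. In slow-growing PNs versus controls it was 0.83 ± 0.59 (edgeR adjusted p = 0.357), and 0.23 without slow replicate 2 (edgeR adjusted p = 0.696). Between fast- and slow-growing PNs it was 1.52 ± 0.43 (edgeR adjusted p = 0.0814), and 2.11 without slow replicate 2 (edgeR adjusted p = 0.00576).

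Markers of nonmyelinating SCs and fibroblasts were set beside *C4b*. The sum of 5 nonmyelinating SC markers was 463–1187 CPM in controls, 1991–3498 CPM in slow-growing PNs, and 3351–4791 CPM in fast-growing PNs, and 4 of the 5 were called higher in fast-growing PNs versus controls. In slow-growing PNs versus controls, where *C4b* was not called, 3 of the 5 were called higher and 0 of the 8 fibroblast markers. The sum of 8 fibroblast markers was 2538–5211, 2075–11415, and 9717–18972 CPM in the same order, with 8 of 8 called higher in fast-growing PNs versus controls. Of all genes, 14.8% were called higher in fast-growing and 4.12% in slow-growing PNs versus controls. *Apod* and *Dcn* held the most counts of the 8, 720595 and 538315 over all libraries, beside 137737 for *Col1a2*. The study reports *Apod* and *Dcn* as raised in several SC clusters of PNs, so this sum is not specific to fibroblasts. Slow replicate 2 had the highest nonmyelinating SC and fibroblast sums among the slow-growing PNs (3498 and 11415 CPM). Relative to the nonmyelinating SC sum, *C4b* was 6.00–12.5% in controls, against 1.15–8.05% for slow-growing and 6.08–11.1% for fast-growing PNs, so these ranges overlapped. Relative to the fibroblast sum the ranges overlapped too, at 1.37–2.96%, 1.12–2.47%, and 1.74–2.997%. The part of these cells in the *C4b* difference was not tested, and in bulk tissue more cells of a type and more RNA per cell cannot be told apart.

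*C1ra*, which encodes the C1r protease, was at 14.5, 21.2, and 16.0 CPM in controls. It was at 11.3, 23.6, 10.9, 3.29, and 15.3 CPM in slow-growing PNs and at 8.64–26.1 CPM, median 20.1, in fast-growing PNs. The 3 groups overlapped, and the log2 fold change versus controls was -0.46 ± 0.50 in slow-growing PNs (edgeR adjusted p = 0.549) and 0.08 ± 0.34 in fast-growing PNs (edgeR adjusted p = 0.892). *C2*, the protease that joins C4b in the classical convertase, was at 31.7, 31.4, and 20.7 CPM in controls, 29.9, 23.9, 17.98, 4.65, and 16.2 CPM in slow-growing PNs, and 9.39–31.8 CPM, median 28.2, in fast-growing PNs. Fast replicate 2 was the lowest fast-growing PN for both genes. *C2* differed from controls by a log2 fold change of -0.63 ± 0.48 in slow-growing PNs (edgeR adjusted p = 0.390) and -0.21 ± 0.36 in fast-growing PNs (edgeR adjusted p = 0.694). *C4b* and *C1ra* have near-identical copies, *C4a* and *C1rb*, which stayed at or below 1.68 and 1.34 CPM, and the counting could have split reads between copies. Exons of *C2* and *Cfb* overlap the annotated gene *Gm20547* on the same strand, which has no row in the count table, and *C2* shares 161 bases with *Zbtb12* on the opposite strand, where the strand setting of the counting is not given in the sources used here.

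**Figure D2:**
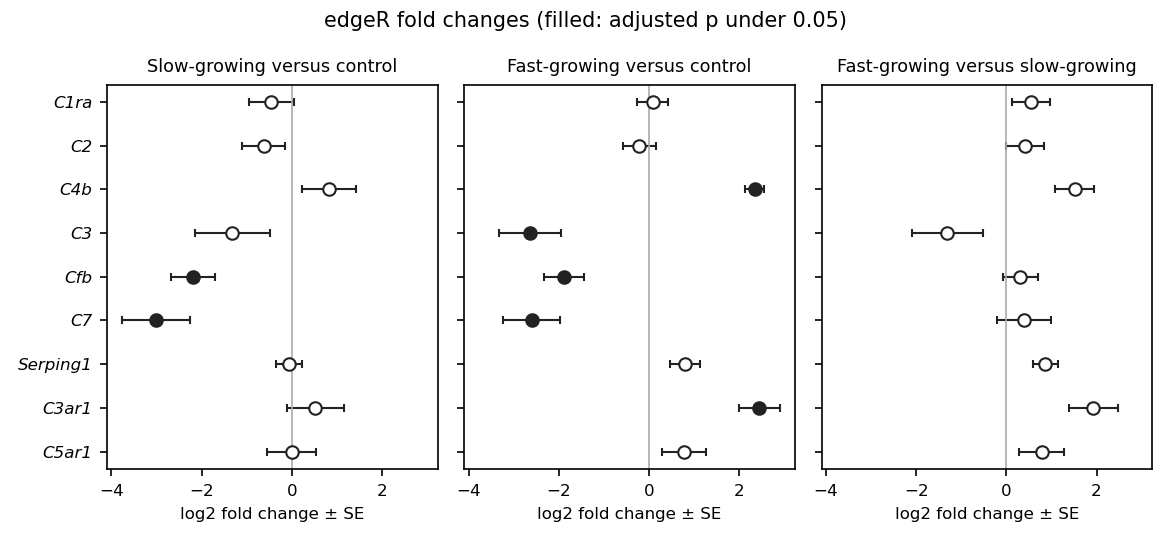
The log2 fold change of each member with its SE from edgeR in the 3 comparisons, where positive values are higher in the group named first; filled points have a Benjamini-Hochberg adjusted p under 0.05. *C7* and *Cfb* are filled in both comparisons with controls, *C3*, *C4b*, and *C3ar1* in fast-growing PNs versus controls, and no point is filled in fast- versus slow-growing PNs.

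*C3*, on which all activation pathways meet, fell in fast-growing PNs. It was at 542, 885, and 1004 CPM in controls. Slow-growing PNs held 219, 367, 377, 15.1, and 688 CPM, and fast-growing PNs ranged from 36.7 to 336 CPM with a median of 75.0. Every fast-growing PN was below every control, whereas slow replicate 5 overlapped the controls and slow replicate 4 was lower than any fast-growing PN. The log2 fold change in fast-growing PNs versus controls was -2.64 ± 0.68 (edgeR adjusted p = 0.0160), and without control replicate 3 it was -2.41 (edgeR adjusted p = 0.0592). In slow-growing PNs versus controls it was -1.32 ± 0.83 (edgeR adjusted p = 0.301), and between fast- and slow-growing PNs it was -1.31 ± 0.79 (edgeR adjusted p = 0.384). The fast-growing PNs differed among themselves in *C3* by more than in *C4b*, with a coefficient of variation of 91.3% against 17.1%.

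Per kilobase of the longest annotated transcript, *C3* was above *C4b* in every control and in 4 of 5 slow-growing PNs, and below it in 5 of 6 fast-growing PNs. The ratio of *C3* to *C4b* per kilobase was 7.97, 12.3, and 20.8 in controls and 2.34, 1.36, 6.64, 0.411, and 5.97 in slow-growing PNs. In fast-growing PNs it ranged from 0.132 to 1.06 with a median of 0.263. Every PN was below every control, while slow replicate 4 lay within the fast-growing range. Of the summed level of the 9 members per kilobase, *C3* made up 26.7–49.9% in controls, against 2.62–41.6% for slow-growing and 1.959–12.4% for fast-growing PNs, and *C4b* made up 2.39–3.55%, 4.05–15.5%, and 11.7–23.9%. These shares are descriptions of single libraries and were not tested.

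**Figure D3:**
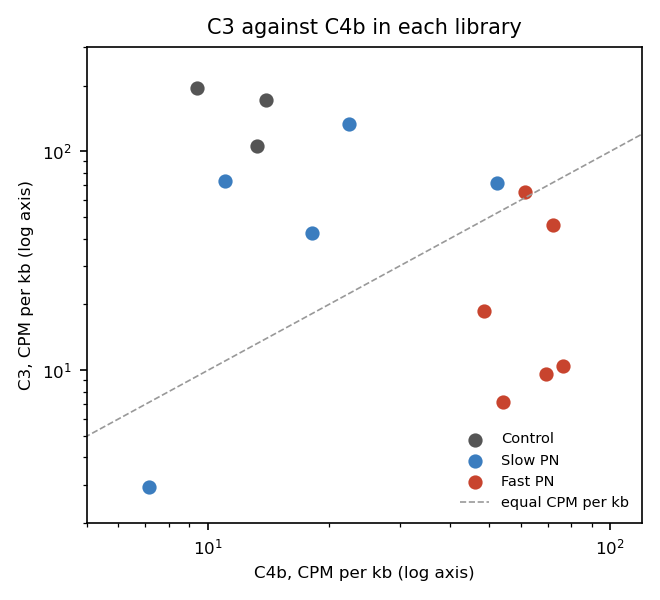
Level of *C3* against that of *C4b* in each library, both in CPM per kilobase of the longest annotated transcript on log axes, with controls in grey, slow-growing PNs in blue, and fast-growing PNs in red; the dashed line marks equal levels. Controls sit at ratios of *C3* to *C4b* of 7.97 or more, and fast-growing PNs at 1.06 or less.

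*Cfb*, the protease of the alternative convertase, was lower in PNs of both growth groups. It was at 31.97, 102, and 89.2 CPM in controls and at 15.3, 18.2, 17.2, 5.93, and 27.6 CPM in slow-growing PNs. In fast-growing PNs it was at 8.71–31.0 CPM with a median of 23.5. No PN reached a control, although control replicate 1 (31.97 CPM) and fast replicate 4 (31.0 CPM) nearly met. The change of *Cfb* was -2.19 ± 0.49 in slow-growing PNs (edgeR adjusted p = 0.0261) and -1.89 ± 0.45 in fast-growing PNs (edgeR adjusted p = 0.0105). The call in fast-growing PNs was lost without control replicate 2 (-1.60, edgeR adjusted p = 0.0541). The call in slow-growing PNs was lost without control replicate 2, control replicate 3, slow replicate 1, or slow replicate 3, with edgeR adjusted p from 0.0646 to 0.114, and with the macrophage score described below as a covariate (-1.47, edgeR adjusted p = 0.132). With that covariate the values in fast-growing PNs versus controls were -2.67 for *Cfb* (edgeR adjusted p = 5.27e-05) and -3.65 for *C3* (edgeR adjusted p = 0.00357).

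*C7*, the terminal component that anchors the growing pore in a membrane, was also lower in both groups of PNs. It was at 81.6, 53.5, and 11.9 CPM in controls and at 14.9, 1.58, 7.11, 2.92, and 4.63 CPM in slow-growing PNs. Fast-growing PNs held 1.57–14.9 CPM with a median of 7.46. Control replicate 3 was lower than slow replicate 1 and fast replicate 4, so the groups overlapped through that control. Its log2 fold change was -3.00 ± 0.76 in slow-growing PNs (edgeR adjusted p = 0.0386) and -2.60 ± 0.63 in fast-growing PNs (edgeR adjusted p = 0.0120). Without control replicate 1 these values were -2.44 (edgeR adjusted p = 0.0801) and -2.05 (edgeR adjusted p = 0.0505). The call in slow-growing PNs also did not hold without control replicate 2 or any of slow replicates 2, 3, 4, and 5, with edgeR adjusted p from 0.0535 to 0.119, and without slow replicate 1 the value was -3.60 (edgeR adjusted p = 0.0274).

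Summed fat markers were higher in every control than in every PN. Summed muscle markers were higher in every control than in every fast-growing PN, whereas slow-growing PNs overlapped the controls. The sum of 11 fat markers was 3519–4467 CPM in controls, 21.4–2126 CPM in slow-growing PNs, and 18.7–203 CPM in fast-growing PNs, and 11 of 11 were called lower in fast-growing and 1 of 11 in slow-growing PNs versus controls. The sum of 13 skeletal muscle markers was 11332–40618, 67.5–13100, and 386–7945 CPM, with 11 of 13 and 1 of 13 called lower. Control replicate 1 had the lowest muscle sum of the controls (11332 CPM), and slow replicates 1 and 3 exceeded it (13100 and 12332 CPM). The sum of 5 pericyte markers was 661–867 CPM in controls, 96.5–1012 CPM in slow-growing PNs, and 96.6–212 CPM in fast-growing PNs, with 4 of 5 called lower in fast-growing and 1 of 5 in slow-growing PNs versus controls. That of 6 endothelial markers was 312–399, 86.1–409, and 122–305 CPM, with 3 of 6 called lower in fast-growing PNs versus controls and 0 of 6 in slow-growing PNs. Slow replicate 5 had the highest sum of both lists (1012 and 409 CPM), and their part in the differences of *C3*, *Cfb*, and *C7* was not tested. Slow replicate 5 also had the highest fat sum of the PNs (2126 CPM) and the highest *C3*, and slow replicate 4 had the lowest *C3* with a fat sum of 21.4 CPM. Fast replicates 3 and 6 had fat sums of 18.7 and 22.6 CPM and *C3* at 236 and 53.7 CPM. Set against the fat sum, *C3* came to 14.6–25.1% for controls, 22.7–123% for slow-growing PNs, and 47.5–1262.5% for fast-growing PNs. By this ratio every fast-growing PN lay above every control, and slow-growing PNs overlapped both. The ratio was not tested. With scores of the fat and muscle lists as covariates, no member was called in any comparison, but neither was any other gene, with 0 called of 15714 in slow-growing PNs versus controls, 0 of 16037 in fast-growing PNs versus controls, and 0 of 15465 between fast- and slow-growing PNs. In fast-growing PNs versus controls *C3*, *Cfb*, and *C7* had log2 fold changes of -3.13, -3.30, and -4.23 in that fit (edgeR adjusted p from 0.763 to 0.895), and *C4b* and *C3ar1* of 0.96 and 0.37 (edgeR adjusted p = 0.822 and 0.975). Since the fat sum of every control exceeded that of every PN, fat and group cannot be told apart in that fit. The same held for the muscle sum in fast-growing PNs versus controls.

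*Serping1* encodes the C1 inhibitor, which inactivates C1r and C1s. It was at 374, 224, and 231 CPM in controls, at 349, 310, 286, 166, and 243 CPM in slow-growing PNs, and at 253–644 CPM with a median of 559 in fast-growing PNs. Fast replicates 2 and 5 (253 and 333 CPM) lay within the range of the controls, and the other fast-growing PNs lay above it. The log2 fold change versus controls was -0.07 ± 0.28 in slow-growing PNs (edgeR adjusted p = 0.887) and 0.80 ± 0.34 in fast-growing PNs (edgeR adjusted p = 0.102). Without fast replicate 2 the latter was 0.94 (edgeR adjusted p = 0.0282). Between fast- and slow-growing PNs it was 0.87 ± 0.27 (edgeR adjusted p = 0.108; DESeq2 adjusted p = 0.0432).

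The receptor of C3a, *C3ar1*, rose in fast-growing PNs. It was at 11.1, 11.4, and 14.4 CPM in controls. Slow-growing PNs held 10.03, 47.3, 15.5, 5.48, and 12.0 CPM, and fast-growing PNs ranged from 34.1 to 117 CPM with a median of 65.0. Every fast-growing PN was above every control, and slow replicate 2 was again within the fast-growing range. The log2 fold change in fast-growing PNs versus controls was 2.44 ± 0.45 (edgeR adjusted p = 0.00326), and it passed the threshold with each of the 9 libraries left out. In slow-growing PNs versus controls it was 0.52 ± 0.63 (edgeR adjusted p = 0.585), and it changed sign without slow replicate 2 (-0.23, edgeR adjusted p = 0.666). Between fast- and slow-growing PNs it was 1.93 ± 0.55 (edgeR adjusted p = 0.0810), and 2.68 without slow replicate 2 (edgeR adjusted p = 0.00817).

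The receptor of C5a, *C5ar1*, was at 7.43, 4.90, and 7.40 CPM in controls and 5.40, 11.1, 9.75, 1.55, and 5.79 CPM in slow-growing PNs. In fast-growing PNs it was at 3.92–20.05 CPM with a median of 10.5. The groups overlapped, and the log2 fold change versus controls was -0.0021 ± 0.54 in slow-growing PNs (edgeR adjusted p = 0.998) and 0.77 ± 0.49 in fast-growing PNs (edgeR adjusted p = 0.264). Between fast- and slow-growing PNs it was 0.78 ± 0.50 (edgeR adjusted p = 0.409). Fast replicate 5 was lowest and fast replicate 4 highest of the fast-growing PNs.

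Macrophage markers were set beside both receptors. The sum of 12 macrophage markers was 324–1439 CPM in controls, 146–1275 CPM in slow-growing PNs, and 681–2098 CPM in fast-growing PNs. Of the 12, 2 were called higher in fast-growing PNs versus controls and 2 in fast- versus slow-growing PNs, none in slow-growing PNs versus controls (of all genes, 14.8%, 0.802%, and 4.12% were called higher in the same order). The median log2 fold change of the 12 was -1.05 in slow-growing PNs versus controls, beside 0.52 for *C3ar1* and -0.0021 for *C5ar1*. It was 0.65 in fast-growing PNs versus controls (2.44 and 0.77 for the receptors) and 1.73 in fast- versus slow-growing PNs (1.93 and 0.78). Slow replicate 2 had the highest macrophage sum of the slow-growing PNs (1275 CPM), and control replicates 2 and 3 (1439 and 1347 CPM) exceeded it at *C3ar1* levels of 11.4 and 14.4 CPM. *C3ar1* was 0.790–3.41% of the macrophage sum in controls, against 3.03–3.97% for slow-growing and 4.31–5.78% for fast-growing PNs, so that fast-growing PNs lay above the others. *C5ar1* was 0.340–2.29%, 0.873–2.49%, and 0.443–1.30% of that sum. With the macrophage score as a covariate, which was added once the data had been seen, the log2 fold change of *C3ar1* was 1.72 in fast-growing PNs versus controls (edgeR adjusted p = 0.00734) and 0.02 in fast- versus slow-growing PNs (edgeR adjusted p = 0.967). In the same fits that of *C4b* was 2.20 (edgeR adjusted p = 0.000273) and 0.39 (edgeR adjusted p = 0.652). That fit called 0 of all 15465 genes between fast- and slow-growing PNs.

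**Figure D4:**
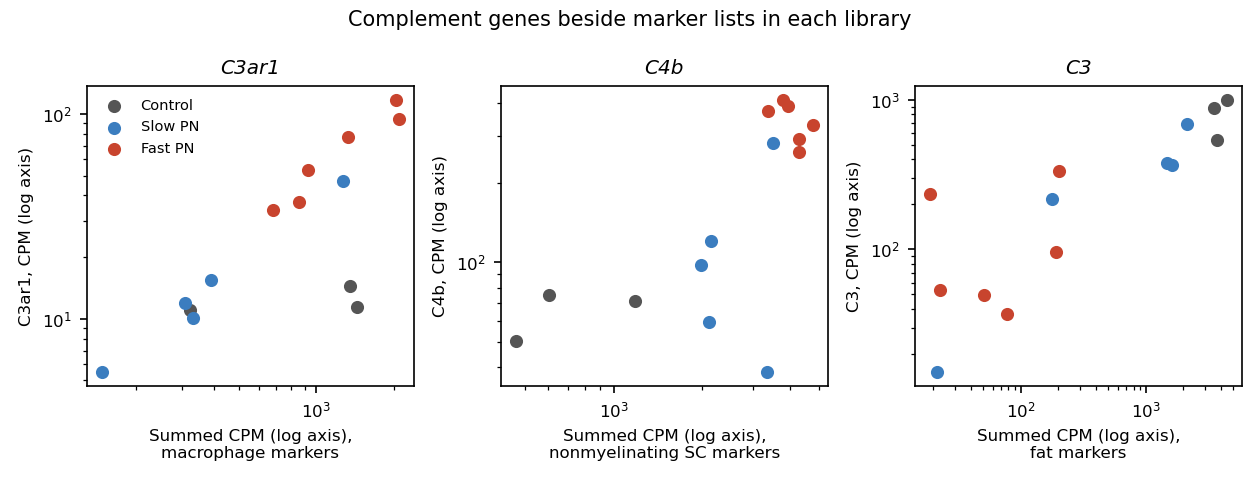
Level of *C3ar1*, *C4b*, and *C3* in CPM against the summed CPM of macrophage, nonmyelinating SC, and fat markers in each library, on log axes, with controls in grey, slow-growing PNs in blue, and fast-growing PNs in red. Control replicates 2 and 3 combine macrophage sums of 1439 and 1347 CPM with *C3ar1* at 11.4 and 14.4 CPM, and fast replicates 3 and 6 combine the fat sums of 18.7 and 22.6 CPM with *C3* at 236 and 53.7 CPM.

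Per kilobase of the longest transcript, *Serping1* and *C3* led in controls at 156 (range 127–212) and 158 (106–195) CPM per kilobase, which did not differ beyond their spread. Next came *Cfb* at 27.1 (11.6–37.2), *C7* at 18.3 (4.46–30.5), *C4b* at 12.2 (9.38–14.0), and *C2* at 10.6 (7.85–12.0), each range overlapping its neighbour's. *C1ra* at 5.78 (4.87–7.10) stood clear of *C3ar1* at 2.85 (2.57–3.34) and *C5ar1* at 2.59 (1.93–2.93) at the low end. In slow-growing PNs *Serping1* led at 153 (94.1–197), *C3* followed at 64.9 (2.93–134), and *C4b* was next at 22.2 (7.13–52.4). The other 6 slow-growing means lay between 2.33 (*C7*) and 7.01 (*C2*) with overlapping ranges. In fast-growing PNs *Serping1* led at 279 (143–364) and stood clear of *C4b* at 63.7 (48.5–76.6), whose range met that of *C3* at 26.2 (7.15–65.4). By its mean, *C3ar1*, which ranked 8 of 9 in controls, ranked 4 of 9 in fast-growing PNs at 16.0 (7.92–27.3). *C7*, which ranked 4 of 9 in controls, had the lowest mean there at 3.06 (0.585–5.57). These ranks were not clear of others. The range of *C3ar1* overlapped those of *C3*, *C2* (3.56–12.1), *Cfb* (3.17–11.3), and *C1ra* (2.90–8.74), and that of *C7* overlapped *C5ar1* (1.54–7.89).

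Among the 11 PNs, the genes whose levels followed each member most closely were found by Pearson's r of log2(CPM + 1) over 16283 genes after the mean of each growth group was removed. For *C3ar1* they were *Cotl1* (r = 0.980), *Emr1* (0.973), *Csf1r* (0.972), *Tlr7* (0.970), and *Cyba* (0.968), of which *Emr1* and *Csf1r* are macrophage markers of the list above. For *C4b* they were *D330050G23Rik* (0.983), *Bhlhe40* (0.981), *Acp6* (0.979), *Sspn* (0.975), and *Il34* (0.971). For *C3* they were *Nln* (0.977), *Stat5a* (0.961), *Wbp1l* (0.954), *Mcpt4* (0.948), and *E130102H24Rik* (0.940), of which *Mcpt4* is a mast cell marker. The sum of 5 mast cell markers was 109–135 CPM in controls, 81.6–111 CPM in slow-growing PNs, and 42.2–92.7 CPM in fast-growing PNs. Of the 5, 1 was called lower in fast-growing and 0 in slow-growing PNs versus controls, beside 16.7% and 7.13% of all genes. The part of mast cells in *C3* was not tested. Of the 36 pairs of members, 9 had r over 0.8, the highest being *C2* and *Serping1* (0.919) and the lowest *C4b* and *C7* (-0.14). These values describe 11 libraries in which all genes share depth and cell makeup. Slow replicate 4, the lowest of them for every member but *C7*, was included, and r was not computed without it.

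Of further complement genes, 50 were in the count table. Between slow-growing PNs and controls, where 11.3% of all genes were called, edgeR called 0 of 35 tested genes higher and 3 lower. The 3 were the lectin *Colec11* at -2.38 ± 0.64 (log2, edgeR adjusted p = 0.0485), the fluid-phase regulator *Clu*, and *Cpn2*. *Clu* was at -1.13 ± 0.29 (edgeR adjusted p = 0.0390). DESeq2 called 10, 2 of them higher, among 3539 of 17924 genes. Limma called 3, 1 of them higher, among 1753 of 16382 genes. The fit of all 3 groups called 7, 2 of them higher, among 3280 of 16283 genes. *Cpn2* encodes a subunit of the carboxypeptidase that inactivates C3a and C5a. *Cpn2* had 119, 166, and 127 counts in controls, 0 to 32 in slow-growing PNs, and 0 to 2 in fast-growing PNs, under the floor of 3 counts in each of the latter. The median log2 fold change over the 35 genes was -0.40, beside 0.04 over all genes.

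Between fast-growing PNs and controls, 2 of 37 were called higher and 8 lower, beside 14.8% and 16.7% of all genes, with a median log2 fold change of -0.15 beside 0.02 over all genes. The 2 that rose are membrane regulators, *Csmd1* (2.30 ± 0.28, edgeR adjusted p = 0.000314) and *Cd59a*, which blocks the pore (1.33 ± 0.23, edgeR adjusted p = 0.00229). *Cd59a* was at 159, 82.1, and 82.5 CPM in controls and 216–322 CPM in fast-growing PNs, which did not overlap. Those that fell included *Cpn2*, *Clu* (-1.68), *C1rl* of the classical list (-1.71, edgeR adjusted p = 0.0113), the pore component *C6* (-3.04 ± 0.57, edgeR adjusted p = 0.00339), and the receptor *Cr2* (-2.63 ± 0.61, edgeR adjusted p = 0.00982), although in control replicate 1 *C6* (2.51 CPM) was within the range of fast-growing PNs and *Cr2* (3.89 CPM) below it. Control replicates 2 and 3, at 65.6 and 50.0 CPM of *Cr2*, had sums of 7 lymphocyte markers of 240 and 223 CPM, against 5.70 CPM in control replicate 1, 3.74–104 CPM in slow-growing PNs, and 2.11–107 CPM in fast-growing PNs. Of the 7, 1 was called lower in each comparison with controls, beside 7.13% and 16.7% of all genes in slow- and fast-growing PNs. The part of these markers in the *Cr2* difference was not tested. *Cfd*, the fat-derived protease that activates factor B, was at 858, 571, and 1397 CPM in controls and 0.134–88.8 CPM in fast-growing PNs (-5.58 ± 1.48, edgeR adjusted p = 0.0181), beside the fat sums given above. In slow-growing PNs *Cfd* ranged from 0.913 to 1149 CPM (-1.30 ± 1.31, edgeR adjusted p = 0.514).

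The C1q chains, which recognise targets and are made largely by macrophages, differed from controls by 0.38 (*C1qa*), 0.58 (*C1qb*), and -0.04 (*C1qc*) on the log2 scale in fast-growing PNs, with edgeR adjusted p from 0.372 to 0.965. Against slow-growing PNs the same chains had log2 fold changes of 1.92, 1.75, and 1.57, with edgeR adjusted p from 0.113 to 0.169. *C1s1*, the partner protease of C1r, was at 0.84 ± 0.34 in fast-growing PNs versus controls (edgeR adjusted p = 0.0913), and the membrane regulator *Cd55* at -0.06 ± 0.62 (edgeR adjusted p = 0.957). *Hc*, the gene of C5, did not exceed 3.51 CPM in any library, and *C9* had 0 counts in all 14, which allows up to 0.166 to 0.317 CPM by library. Between fast- and slow-growing PNs, edgeR called 1 of 32 genes, beside 1.27% of all genes, namely *Itgax*, a subunit of complement receptor 4. It ranged from 0.548 to 2.48 CPM in slow-growing PNs and from 2.93 to 26.9 CPM in fast-growing PNs (3.19 ± 0.60, edgeR adjusted p = 0.0449). DESeq2 called 8 of the list, 4 of them higher, among 1592 of 17364 genes. *Itgax* was at 0.432, 14.2, and 7.51 CPM in controls, and no gene of the list was called in 8 of the 11 fits that left out 1 library, in which 2 to 65 of all genes were called.

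**Figure D5:**
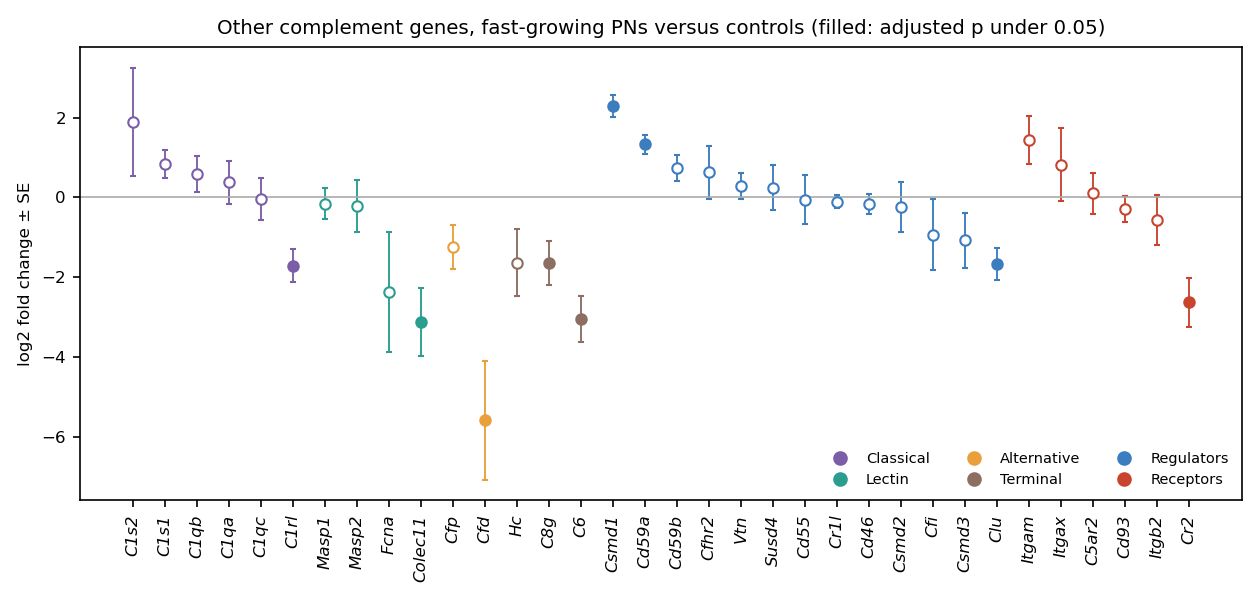
The log2 fold change with its SE in fast-growing PNs versus controls for 34 further complement genes, grouped by pathway step and coloured by group; filled points have a Benjamini-Hochberg adjusted p under 0.05 in edgeR. *Cpn2* and *C1rb* are left out because all libraries of 1 group had fewer than 3 counts, and 1 other tested gene is not reported here; *Csmd1* and *Cd59a* are the filled points above 0, and *Cfd* is the lowest.

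Interferon-stimulated genes were examined beside the members because several complement genes respond to interferon. Their sum over 18 genes was 321–705 CPM in controls, 366–501 CPM in slow-growing PNs, and 644–1179 CPM in fast-growing PNs. Of the 18, 8 were called higher in fast-growing PNs versus controls, 7 in fast- versus slow-growing PNs, and 3 in slow-growing PNs versus controls, where 14.8%, 0.802%, and 4.12% of all genes were called higher, and none was called lower. Their median log2 fold change was 0.96, 1.39, and -0.26 in the same order. *C1ra*, *C4b*, *Serping1*, *C3ar1*, and *C5ar1* had their highest medians in the same fast-growing group, and *C2*, *C3*, *Cfb*, and *C7* did not. Of the former, *C4b* and *C3ar1* were called versus controls, whereas *C1ra*, *Serping1*, and *C5ar1* were not called and overlapped the controls. Neutrophil markers summed to 117–1739 CPM in controls, 54.6–199 CPM in slow-growing PNs, and 61.3–374 CPM in fast-growing PNs. Of 10 tested, 4 were called lower in fast-growing and 2 in slow-growing PNs versus controls, beside 16.7% and 7.13% of all genes. The median log2 fold change of these markers was -2.54 and -2.74 in the same order. Whether either list has a part in the differences of the members was not tested.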

How the data were processed

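Total RNA from 14 tissues was amplified by the authors with the Ovation RNA-Seq System v2. Per the labels and the Methods, the authors called bases with CASAVA 1.4, checked reads with FastQC 0.11.0, aligned them to mm10 with TopHat2 2.0.9, and counted them with featureCounts 1.5.2. The deposited counts are whole numbers per gene, not normalized. The authors also deposited log2 values normalized by TMM in edgeR 3.16.5, used here for 1 alternative; 10 columns headed by a bare number were entered as other units in name only.

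Genes were kept by filterByExpr, scaled by TMM, and tested by the quasi-likelihood test of edgeR 4.0.16 in R 4.3.3, with only the libraries of a comparison in its fit, no covariate, and Benjamini-Hochberg adjustment over all genes. SEs were derived from the F statistic. Levels are CPM with TMM factors over all 14 libraries. Positions came from GENCODE (mm10) and promoters from RefSeq. The test was run on simulated counts in which 200 genes carried a log2 fold change of 2. It found 51.5% of these in the comparison of slow-growing PNs with controls (15469 genes), 63.5% in that of fast-growing PNs with controls (15880 genes), and 81.5% in that of fast- with slow-growing PNs (15327 genes). Depth limits the lowest levels, and floors cover counting error only, since amplified reads can repeat a molecule.

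The members and all lists were chosen with earlier results of these data known. All 9 members are named, with further complement genes set by the rule (*C1qa*, *C1qb*, *C1qc*, *C1s1*, *Hc*, *Cfd*, *Cd55*, and *Cd59a*; 1 other is not reported here), up to 6 with the lowest p among those called in each comparison, and the 5 genes most like each of *C3*, *C4b*, and *C3ar1*. Other genes named were chosen after their values had been seen. Alternatives used DESeq2 1.42.0, limma 3.58.1, other scaling, no filter, all 3 groups in 1 fit, marker scores as covariates, and fits without single libraries. Figures were drawn with matplotlib 3.10.9.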

Additional observations from a re-analysis of the deposited data

Results flagged for a closer look

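*C3ar1* in slow replicate 2 was at 47.27 CPM, apart from the other 4 slow-growing PNs, which held 5.48 to 15.5 CPM. The gap to the nearest of them was 0.759 of the range of the group, above the 95% limit of Dixon's test for 5 samples. It was 1 of 18 group tests over the 9 members in groups of 5 and 6, and chance alone sets off about 1 in 20. The same library had the highest *C4b* (282 CPM) and the highest macrophage, nonmyelinating SC, and fibroblast sums of the slow-growing PNs.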

How the results depend on the processing

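Over all fits, 394 of the values for single members kept their direction and side of the threshold, 34 changed sign, 23 lost a call, and 8 gained one. No paired analysis was possible because the labels give the groups no shared replicate numbers. With other scaling, DESeq2, limma, no filter, or all 3 groups in 1 fit, the count of members called stayed at 2 for slow-growing PNs versus controls and 5 for fast-growing PNs versus controls, and the only change was 3 in place of 0 between fast- and slow-growing PNs by DESeq2. Genes called of all tested were 1769 and 196 in slow-growing PNs versus controls and fast- versus slow-growing PNs, and 3539 and 1592 by DESeq2. DESeq2 called 10 and 8 further complement genes in slow-growing PNs versus controls and fast- versus slow-growing PNs, in place of 3 and 1, and the fit of all 3 groups called 7 in the former. With muscle and fat scores as covariates the counts were 0 throughout, which had been 2 and 5 for members against controls; those fits called 0 of all 15714, 16037, and 15465 genes tested. The cause was not tested. Without single libraries, members called ranged from 0 to 1 in slow-growing PNs versus controls and from 0 to 2 between fast- and slow-growing PNs, and further complement genes from 0 to 9 and from 0 to 8, where 599 to 2454 and 2 to 1194 of all genes were called. The libraries that decide a call are named beside each member.

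Sign changes were as follows, as log2 fold changes. *C5ar1* in slow-growing PNs versus controls was 0.012 with DESeq2 size factors and 0.012 without a filter, 0.016 with DESeq2, 0.032 with all groups, 1.41 with muscle and fat scores, 0.20 with the macrophage score, 0.037 without slow replicates 2 and 4, and from -0.26 to 0.27 without single libraries. Muscle and fat scores also gave *C2* 0.41, *C3* 1.403, *Serping1* 0.33, and *C1ra* 0.13 in that comparison, *Serping1* -0.97 and *C1ra* -1.74 in fast-growing PNs versus controls, and *C3* 0.35 between fast- and slow-growing PNs. Without single libraries *Serping1* ranged from -0.19 to 0.20 and *C3ar1* from -0.23 to 0.78 in slow-growing PNs versus controls, and *C1ra* from -0.047 to 0.26 in fast-growing PNs versus controls. *C1ra* there was -0.029 with limma and -0.44 with the macrophage score.

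Fits with the macrophage score and without slow replicates 2 and 4 were chosen after seeing the data. The macrophage score left 1 member and 1 further complement gene called in slow-growing PNs versus controls and 0 of both between fast- and slow-growing PNs, among 1080 of 15714 and 0 of 15465 genes; in the latter it gave *C2* -0.73, *C7* -0.0059, *Cfb* -0.99, *C1ra* -0.92, and *C5ar1* -0.96. Without slow replicates 2 and 4, 0 members were called in slow-growing PNs versus controls, and 2 members and 7 further genes between fast- and slow-growing PNs, among 1273 of 15418 and 1106 of 15901 genes. *Serping1* (0.043) and *C3ar1* (-0.025) changed sign in the former and *C7* (-0.12) in the latter.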

Other observations

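*C1s2* and *C1rb*, which code for copies of the C1s and C1r proteases, took separate levels in PNs of 1 growth group; both were singled out after their values had been seen. In fast replicates 1, 4, and 6, *C1s2* had 106, 127, and 125 counts and *C1rb* 16, 10, and 20 counts. In fast replicates 2, 3, and 5, *C1s2* had 6, 6, and 1 counts and *C1rb* had 0 counts in each. Elsewhere *C1s2* reached 22 counts in control replicate 2 and 26 and 29 counts in slow replicates 3 and 5, and *C1rb* never exceeded 3 counts. *C1ra* was at 19.2, 24.4, and 26.1 CPM in fast replicates 1, 4, and 6 and at 8.64, 20.9, and 13.2 CPM in fast replicates 2, 3, and 5. The mice were labelled as of mixed strain background, C57BL/6 for the most part by the study's methods; the share of each strain in the mouse behind each library is not given in the sources used here, and its part in these levels was not tested.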
